A study of Mus musculus with 72 samples.

Results

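The change described here is the first step of neural differentiation in mouse embryonic stem cells that lack functional Nup133, a subunit of the Y-complex that scaffolds the nuclear pore. It was followed from day 0 to day 2 in 3 mutant lines, which gave 6 of the 18 biological samples of the study and 24 of its 72 count files. Members were taken by their sample labels alone, as every day 0 and day 2 library of a Nup133 knockout line, and the 4 technical files of a sample were added up. Lines 14 (Nup133-/-, 40 Chr, XY) and 19 (Nup133-/-, likely 40 Chr, XY) are CRISPR/Cas9-edited derivatives of the male line HM1. Line 319 came from a blastocyst and is homozygous for the merm allele (Nup133merm/merm). It is XX with 42 Chr, since it carries an extra chromosome 8 and an extra chromosome 12 (+8 +12), and 1 of its Sox1 copies holds a GFP reporter (Sox1gfp/+). The controls used for comparison were Nup133+/+, in 2 biological replicates of HM1 (40 Chr, XY) and 1 sample per day of the blastocyst-derived line 1A4 (Sox1gfp/+, 40 Chr, XY). Day 0 cells had grown with serum and leukemia inhibitory factor (LIF) on inactivated DR4 mouse embryonic fibroblasts and were collected after the fibroblasts had been left behind by a 20 minute plating. Day 2 cells had then been kept for 2 days on gelatin in N2B27, a serum-free medium without LIF, before any retinoic acid was given. Each line gave 1 sample per day, so the p-values measure the spread of the step among these 3 lines.

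Embryonic stem cells in serum and LIF are held in a naive state, which resembles the epiblast before implantation. LIF acts through STAT3, BMP signals from serum act through the Id genes, and together they keep a set of naive transcription factors on. When LIF and serum are withdrawn, cells shut down the naive factors while keeping Oct4 and Sox2, and pass through a formative state marked by Fgf5, Otx2, Pou3f1 and the de novo DNA methyltransferases before neural genes are switched on.

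The targeted gene was low in every mutant sample. Nup133 (chromosome 8 at 123897123 to 123949265, minus strand, GRCm38) stood at 26.3, 34.8 and 22.8 CPM at day 0 and 19.3, 32.6 and 18.98 CPM at day 2, always in the order of lines 14, 19 and 319. The controls held 221, 228 and 308 CPM at day 0 and 219, 225 and 255 CPM at day 2. CPM are counts per 1000000 gene counts after TMM scaling. The mutant level did not pass the test between days (log2 change -0.27 ± 0.28, adjusted p = 0.584). The 6 samples held between 16.5 M gene counts, in line 19 at day 2, and 52.2 M, in line 319 at day 0, and 14583 to 17069 genes held at least 10 counts. Line 19 at day 2 stood apart, as the shallowest library and by a trend of its change with transcript length that ran opposite to the weaker trend of the 5 other series. Values without line 19 are therefore given beside the results that rest on it. In bulk RNA, fewer cells of a type and less RNA per cell cannot be told apart. Where an annotated gene lies over another, on either strand, its reads may have been counted for both, because the strand setting of the counting is not given in the sources used here. This concerns 91 of the 222 genes listed for naming, among them Tfcp2l1, Bcl3, Junb, Stat3, Pou3f1, Car14, Dnmt3a, Dnmt3b, Dnmt3l, Tet2, Sox21, Pax6, Pou5f1, Bmp4, Notum, Xist and Tsix, and their levels are uncertain to that extent.

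The step changed a broad set of genes in the mutant lines. Of 16466 genes tested, 2101 were called, 1376 higher and 725 lower at day 2 (edgeR quasi-likelihood test with line as a block, Benjamini-Hochberg adjusted p below 0.05). These are 12.8% of the genes tested, 8.36% higher and 4.4% lower. The counts called in each list below stand against these shares. Every called gene moved the same way in all 3 lines, and the smallest called change was 0.99 on the log2 scale. The paired test favours genes whose lines agree, so this agreement is no separate support. Of 14365 uncalled genes, 6314 also moved the same way in all 3 lines. The median called change was 2.21 among the higher genes and -2.15 among the lower genes. Changes of more than 8-fold were seen in 292 of the higher and 172 of the lower genes. A further 2202 genes had a fitted change of more than 2-fold but were not called. Without line 19 the count was 3097 of 16865 genes (18.4%), 1968 higher and 1129 lower, and 1870 of the 2101 genes were called again in the same direction. It was 1053 without line 14 and 3174 without line 319. With the trend on transcript length removed from each sample it was 2962, and 2075 of the first 2101 calls were kept. A fit without 1 line keeps 1 residual degree of freedom. Without line 14 or line 319, the spread of the median gene was pooled fully over genes (infinite prior degrees of freedom). A call lost in such a fit can therefore go with an almost unchanged log2 change.

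**Figure D1:**
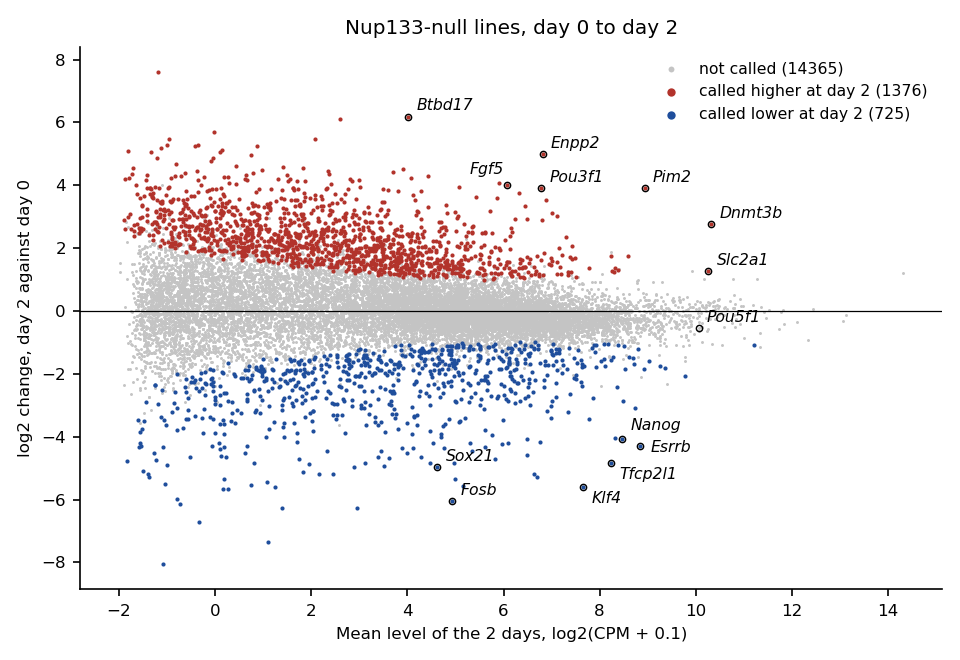
Each point is 1 of 16466 genes in the Nup133-null lines. The horizontal axis gives its mean level over day 0 and day 2 as log2(CPM + 0.1), and the vertical axis its log2 change from day 0 to day 2. Red points are the 1376 genes called higher and blue points the 725 called lower. The naive factors Klf4, Tfcp2l1, Esrrb and Nanog lie below -4, and Dnmt3b and Pim2 are among the highest called genes on the right.

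The naive pluripotency factors were switched down together. Of 20 naive factors tested, 19 were called lower and 0 higher, where 4.4% of all genes were called lower. Their median log2 change was -4.05, against -0.01 over all genes tested. Klf4, a Krüppel-like factor that LIF keeps on, went from 405, 424 and 346 CPM to 8.81, 3.14 and 17.2 CPM (log2 change -5.59 ± 0.57, adjusted p = 0.00231, edgeR quasi-likelihood test as throughout). All 3 lines were high at day 0 and low at day 2 with no overlap, and the lowest of all was line 19. Nanog, a homeodomain factor at the centre of the naive network, stood at 592, 532 and 864 CPM at day 0 and 37.9, 18.9 and 79.3 CPM at day 2 (-4.07 ± 0.38, adjusted p = 0.00231). Esrrb, an orphan nuclear receptor that sustains self-renewal, went from 745, 755 and 1055 CPM to 38.9, 15.6 and 126 CPM (-4.29 ± 0.52, adjusted p = 0.00303). In both genes line 319 began highest and ended highest, and the day 2 levels of all lines lay far below those of day 0.

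Tfcp2l1, a grainyhead-family factor downstream of STAT3, stood at 418, 425 and 879.7 CPM at day 0 and 20.5, 6.14 and 49.5 CPM at day 2 (-4.83 ± 0.48, adjusted p = 0.00231). Zfp42, which encodes the widely used marker Rex1, went from 661, 537 and 584 CPM to 44.8, 16.7 and 60.8 CPM (-4.04 ± 0.42, adjusted p = 0.00231). Prdm14, a repressor that keeps DNA methylation low in naive cells, went from 37.9, 38.4 and 51.4 CPM to 0.910, 0.888 and 3.46 CPM (-4.85 ± 0.44, adjusted p = 0.0021). Line 319 kept the most of each of these 3 genes at day 2. Tbx3, a T-box factor of the naive network, stood at 96.8, 106 and 312 CPM at day 0 and 4.50, 6.83 and 7.80 CPM at day 2 (-4.57 ± 0.39, adjusted p = 0.00163). Jam2, which encodes a junctional adhesion molecule, and Mras, which encodes a Ras-family GTPase, fell by a similar extent, with log2 changes of -5.27 (adjusted p = 0.00163) and -5.57 (adjusted p = 0.00163). For Mras the 3 day 2 levels, 1.26, 1.43 and 1.36 CPM, were almost equal although line 319 had begun at more than the others (53.4, 43.5 and 113 CPM). The uncalled factor was Gbx2, a homeobox gene that LIF induces. It stood at 15.3, 23.1 and 21.7 CPM at day 0 and 13.1, 25.1 and 4.58 CPM at day 2, and only line 319 lay clearly lower at day 2 (-0.74 (adjusted p = 0.363)). Tdh, which encodes the threonine dehydrogenase that mouse stem cells depend on, was called lower (-1.68 (adjusted p = 0.0268)) but not without line 19 (adjusted p = 0.0533) or without line 14 (0.204). Fgf4 was the smallest called fall of the group (-1.16 (adjusted p = 0.0385)) and was not called without line 14 (adjusted p = 0.284). Summed over the 20 factors, the naive level was 5207, 5162 and 6786 CPM at day 0 and 537, 446 and 1100 CPM at day 2. Without line 19 the median change was -3.61 and 18 were called lower.

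**Figure D2:**
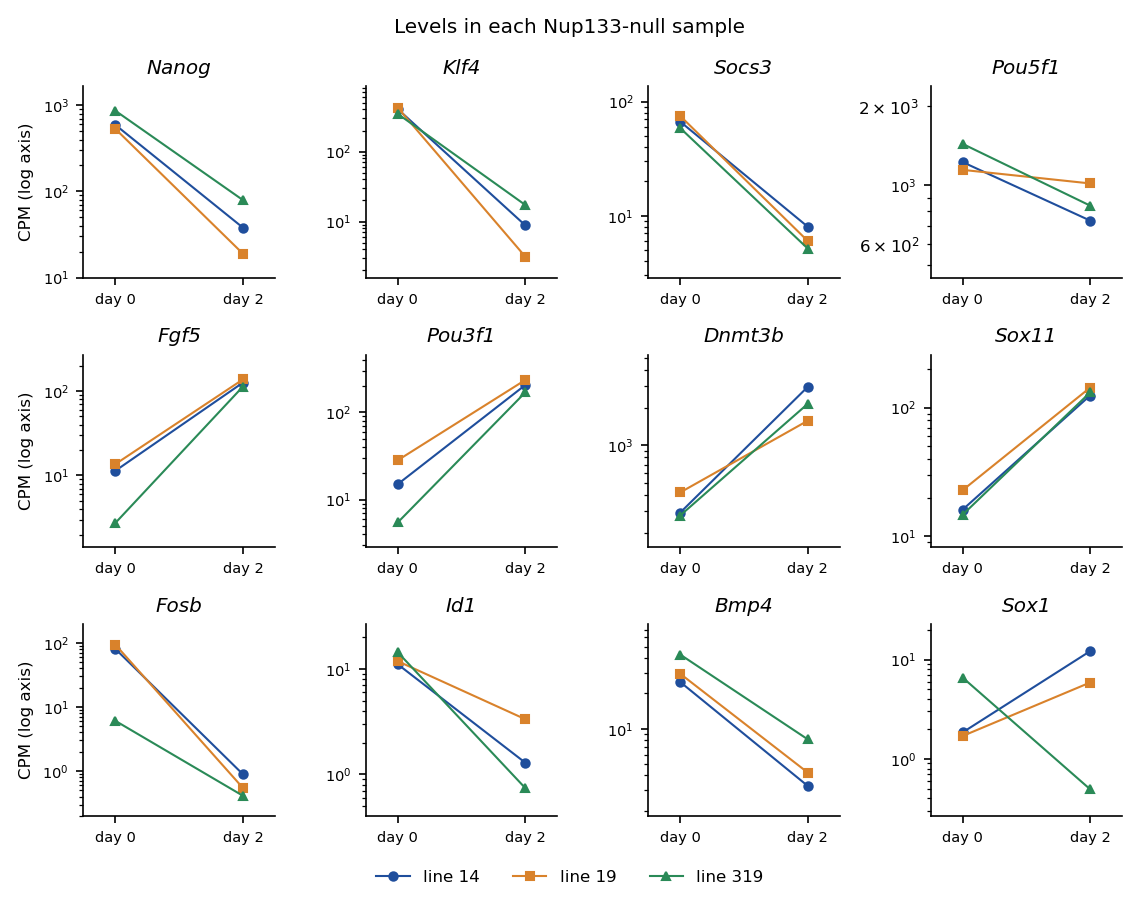
Levels of 12 genes in CPM on a log axis at day 0 and day 2, 1 line per cell line (circles line 14, squares line 19, triangles line 319). Nanog, Klf4, Socs3, Fosb, Id1 and Bmp4 fall and Fgf5, Pou3f1, Dnmt3b and Sox11 climb in all 3 lines, Pou5f1 stays within a narrow range, and Sox1 goes up in lines 14 and 19 and down in line 319.

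Genes of the LIF pathway were lower at day 2, from the receptor to the targets. LIF binds a receptor made of Lifr and gp130 (Il6st), Jak1 phosphorylates STAT3, and STAT3 switches on targets that include its own inhibitor Socs3. Of the 15 genes tested, 12 were called lower and 0 higher, with a median log2 change of -2.21 against -0.01 over all genes. The receptor gene Lifr stood at 156, 154 and 96.3 CPM at day 0 and 38.2, 10.7 and 53.6 CPM at day 2 (-2.21 ± 0.55, adjusted p = 0.0347), with line 19 the lowest at day 2. Stat3 itself went from 164, 175 and 117 CPM to 41.5, 20.4 and 33.4 CPM (-2.29 ± 0.35, adjusted p = 0.00635), and every day 2 sample lay below every day 0 sample. Socs3 stood at 66.9, 75.01 and 58.7 CPM at day 0 and 8.01, 6.01 and 5.16 CPM at day 2 (-3.40 ± 0.31, adjusted p = 0.0021), with the same separation in all 3 lines.

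Bcl3, an atypical IκB protein, went from 32.5, 35.2 and 30.5 CPM to 1.51, 1.84 and 1.40 CPM (-4.37 ± 0.34, adjusted p = 0.00163), and the lines were closely alike on both days. Junb, an AP-1 subunit, stood at 45.02, 48.5 and 23.1 CPM at day 0 and 9.79, 10.3 and 3.84 CPM at day 2 (-2.33 ± 0.30, adjusted p = 0.00341). Line 319 was lower than the other lines on both days. Jak1, Cish and Osmr were not called, and Cish, another STAT-induced inhibitor, stood at 6.48, 5.66 and 5.14 CPM at day 0 and 3.81, 4.03 and 3.75 CPM at day 2 (-0.57 (adjusted p = 0.333)). Fos went from 132, 183 and 14.9 CPM to 3.90, 1.64 and 3.26 CPM (-4.70 ± 0.84, adjusted p = 0.0111) and was not called without line 19 (adjusted p = 0.0837), and line 319 had begun at far less Fos than lines 14 and 19. Ccnd3 (-1.55 (adjusted p = 0.0231)) was not called without line 14 (adjusted p = 0.0594) or without line 319 (adjusted p = 0.0793). Without line 19, 11 of the 15 were called lower and the median was -1.73.

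The 250 bases before the start of Socs3 are shown because this gene is the feedback target that links STAT3 to its own inhibition. They come from the RefSeq promoter table for GRCm38.p6, chr11:117969367-117969616 on the minus strand, and the capitals mark the match to the STAT spacer motif TTCNNNGAA, which begins 154 bases before the start.
Socs3: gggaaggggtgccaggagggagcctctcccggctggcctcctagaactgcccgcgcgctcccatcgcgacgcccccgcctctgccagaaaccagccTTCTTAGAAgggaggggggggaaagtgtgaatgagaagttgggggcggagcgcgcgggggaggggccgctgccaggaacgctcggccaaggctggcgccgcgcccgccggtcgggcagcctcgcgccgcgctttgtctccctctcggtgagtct
The motif was searched on both strands of the 300 bases from 250 before to 50 after each start, and it includes every match of the stricter TTCCNGGAA. Of the genes tested with a RefSeq promoter, 8.03% held it, and among the 15 LIF pathway genes it was held by 2, Socs3 and Cish. The stricter motif was in 1.515% of the genes with a promoter and, among the pathway genes, in Cish alone. A match describes the letters and not a bound site.

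Formative and primed epiblast genes were higher at day 2. Of 23 tested, 12 were called higher and 0 lower, where 8.36% of all genes were called higher, and the median log2 change was 1.55. Without line 19, 17 were called higher and the median was 1.96. Fgf5, the growth factor that marks the post-implantation epiblast, stood at 11.4, 13.6 and 2.74 CPM at day 0 and 126, 137 and 113 CPM at day 2 (4.02 ± 0.47, adjusted p = 0.00277). Line 319 began lowest, yet the 3 lines reached nearly the same level at day 2. Pou3f1, a POU factor also called Oct6, went from 15.03, 28.2 and 5.49 CPM to 205, 234 and 169 CPM (3.92 ± 0.43, adjusted p = 0.00259), again from the lowest start in line 319. Car14, which encodes a membrane carbonic anhydrase, stood at 1.004, 1.24 and 1.52 CPM at day 0 and 29.99, 30.4 and 24.8 CPM at day 2 (4.50 ± 0.37, adjusted p = 0.00163), and the lines were alike on both days.

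Sox3, a SoxB1 factor of the epiblast and neural plate, went from 2.56, 3.12 and 4.36 CPM to 27.4, 59.4 and 14.9 CPM (3.16 ± 0.51, adjusted p = 0.00786), with line 19 the highest at day 2. Sall2, a zinc finger factor, stood at 32.1, 43.3 and 12.1 CPM at day 0 and 276, 209 and 196 CPM at day 2 (3.13 ± 0.40, adjusted p = 0.00341). Zic2 (1.64 (adjusted p = 0.0312)) and Lef1 (1.56 (adjusted p = 0.0216)) were called, but neither without line 14 (adjusted p = 0.0745 and 0.187), and Zic2 also not without line 319 (adjusted p = 0.092). Otx2, a homeobox factor that drives the exit from the naive state, stood at 109, 160.00 and 39.3 CPM at day 0 and 225, 155 and 290.5 CPM at day 2 (1.28 ± 0.53, adjusted p = 0.164). It was up in lines 14 and 319 and level in line 19, and was called without line 19 (log2 change 1.98, adjusted p = 0.0484). Etv4, Etv5, Grhl2 and Dusp6 were not called, with log2 changes of -0.27, -0.30, 0.10 and 0.34.

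Factors shared by naive and later pluripotency had a smaller median change than the naive factors. Of 14 tested, 1 was called higher and 2 lower, where 8.36% and 4.4% of all genes were, and the median was -0.57. Without line 19, 2 were called higher and 5 lower, and with the length trend removed 1 and 6. Pou5f1, which encodes Oct4, stood at 1226, 1145 and 1436 CPM at day 0 and 736, 1018 and 839 CPM at day 2 (-0.56 ± 0.30, adjusted p = 0.265), and line 19 at day 2 was almost as high as its own day 0. Without line 19 the fall of Pou5f1 was called (log2 change -0.74, adjusted p = 0.0307). Sox2 went from 471, 479.5 and 355 CPM to 260.5, 166 and 254 CPM (-0.95 ± 0.32, adjusted p = 0.0893), with every day 2 sample below every day 0 sample. Lin28a, an RNA-binding protein that blocks let-7 maturation, stood at 538, 570.1 and 406 CPM at day 0 and 692, 633 and 564 CPM at day 2 (0.33 ± 0.28, adjusted p = 0.485), and Utf1, a chromatin protein of pluripotent cells, had a change of -0.08 (adjusted p = 0.883). The called genes were Dppa5a (-1.76 (adjusted p = 0.0141)), Epcam (1.36 (adjusted p = 0.0164)) and Trim28 (-1.07 (adjusted p = 0.0438)), none of them called without line 14 (adjusted p = 0.17, 0.193 and 0.417). Their log2 changes without line 14 were -1.45, 1.36 and -1.06. Trim28 was also not called without line 319 (adjusted p = 0.222).

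The DNA methylation machinery changed in both directions. Of 12 genes, 2 were called higher and 2 lower, where 8.36% and 4.4% of all genes were. Dnmt3b, a de novo methyltransferase, stood at 289, 419 and 274 CPM at day 0 and 2944, 1576 and 2153 CPM at day 2 (2.75 ± 0.38, adjusted p = 0.00438), with line 14 the highest at day 2 and no overlap between days. Dnmt3a, its partner enzyme, went from 95.6, 152 and 139 CPM to 381, 263 and 768 CPM (1.76 ± 0.38, adjusted p = 0.0217), most in line 319. Tet2, which oxidises methylcytosine, stood at 165, 200.3 and 241 CPM at day 0 and 14.6, 3.55 and 22.9 CPM at day 2 (-4.16 ± 0.53, adjusted p = 0.00351), and line 19 was again the lowest. Dnmt3l, a cofactor without catalytic activity, fell (-1.46 (adjusted p = 0.02)), from 323, 347 and 641 CPM to 100.2, 100.03 and 342 CPM, and line 319 stayed the highest. Tet1 stood at 1060.1, 1273 and 886 CPM at day 0 and 282, 57.6 and 520.3 CPM at day 2 (-2.31 ± 0.67, adjusted p = 0.0585) and was called without line 19 (log2 change -1.32, adjusted p = 0.018). The maintenance genes Dnmt1 (-0.41 (adjusted p = 0.48)) and Uhrf1 (-0.26 (adjusted p = 0.6)) were not called. Neither Dnmt3a nor Dnmt3l was called without line 14 (adjusted p = 0.12 and 0.206). Of 19 germline genes that methylation silences in somatic cells, 2 were called higher and 0 lower, and without line 19 3 and 2. The 2 called with all lines were Tdrd1 (2.58 (adjusted p = 0.0151)) and Mael (1.14 (adjusted p = 0.035)), both of the piRNA pathway, and Mael was not called without line 14 or line 319 (adjusted p = 0.354 and 0.0881). Dazl stood at 9.49, 10.6 and 8.79 CPM at day 0 and 5.26, 1.64 and 9.53 CPM at day 2 (-1.06 (adjusted p = 0.241)).

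Transcripts of the rare two-cell-like state were lower at day 2. These cells arise spontaneously in stem cell cultures and express the Zscan4 cluster. Of 11 genes tested, 8 were called lower and 0 higher, with a median of -2.29, and without line 19 7 were called lower with a median of -2.21. Their summed level was 9.98, 14.7 and 19.9 CPM at day 0 and 2.75, 2.19 and 4.54 CPM at day 2, so each line lost most of a low starting level. Zscan4d stood at 1.81, 2.88 and 3.97 CPM at day 0 and 0.692, 0.683 and 0.784 CPM at day 2 (-1.92 ± 0.45, adjusted p = 0.0289), and Zscan4c changed by -1.94 (adjusted p = 0.0319). Neither was called without line 14 (adjusted p = 0.0676 and 0.221). These genes have near-identical copies, so how their reads were divided is uncertain.

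Neural progenitor genes moved in both directions. Of 20 listed, 15 were tested, and 3 were called higher and 4 lower, where 8.36% and 4.4% of all genes were. The median over the list was 0.05. The median was 0.33 in line 14, 0.14 in line 19 and -1.08 in line 319. Without line 19 it was -0.74, with 4 called higher and 3 lower. Sox11, a SoxC factor of young neural cells, stood at 16.1, 22.8 and 14.7 CPM at day 0 and 124, 143 and 131 CPM at day 2 (2.92 ± 0.30, adjusted p = 0.00231), and the lines were close on both days. Nes, the intermediate filament nestin, went from 39.6, 31.9 and 28.9 CPM to 103, 131 and 69.8 CPM (1.56 ± 0.30, adjusted p = 0.0135). Pax6, a paired-box factor of neuroectoderm, stood at 27.7, 30.6 and 6.81 CPM at day 0 and 10.3, 9.29 and 3.22 CPM at day 2 (-1.41 ± 0.31, adjusted p = 0.0223), a fall in each line from a lower start in line 319. Sox21 fell the most, from 63.4, 67.3 and 12.9 CPM to 2.09, 0.956 and 0.825 CPM (-4.98 ± 0.48, adjusted p = 0.00231). Ncam1, a neural cell adhesion molecule, fell as well (-1.88 (adjusted p = 0.00686)). Hesx1 (-2.66 (adjusted p = 0.0391)) was not called without line 19 (adjusted p = 0.071) or line 14 (adjusted p = 0.159), and Nes and Pax6 were not called without line 14 (adjusted p = 0.0763 and 0.165). Sox1, the earliest marker of the neural plate, stood at 1.85, 1.70 and 6.60 CPM at day 0 and 12.1, 5.87 and 0.495 CPM at day 2 (0.78 ± 1.22, adjusted p = 0.72). It went up in lines 14 and 19 and down in line 319, which carries the Sox1gfp allele and an extra chromosome 8, the chromosome of Sox1. Whether the reporter allele or the copy number bears on that level was not tested. In the 1A4 control, which carries the same allele, Sox1 was 1.78 CPM at day 0 and 1.52 CPM at day 2.

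Markers of other early lineages were mixed. The counts called in each lineage stand against the 8.36% of all genes called higher and the 4.4% called lower. Summed over its 16 genes, the mesendoderm list stood at 30.2, 28.3 and 31.7 CPM at day 0 and 17.2, 13.45 and 34.03 CPM at day 2. The 16 primitive endoderm genes summed to 413, 393 and 633 CPM at day 0 and 407, 300.03 and 529.6 CPM at day 2. The 13 trophoblast genes summed to 118, 108 and 72.6 CPM at day 0 and 90.3, 192 and 82.9 CPM at day 2, with line 19 the highest at day 2. Of 11 mesendoderm genes tested, 2 were called lower, Evx1 (-4.39 (adjusted p = 0.0116)) and Kdr (-4.18 (adjusted p = 0.00318)), and 0 higher. T, the brachyury gene, stood at 4.41, 2.35 and 1.91 CPM at day 0 and 0.783, 0.546 and 2.02 CPM at day 2 (-1.48 ± 0.60, adjusted p = 0.154), down in lines 14 and 19 and level in line 319. Eomes, another T-box gene of mesendoderm, changed by -0.05 (adjusted p = 0.959) and was at 6.57, 5.05 and 19.97 CPM at day 2, highest in line 319. Cer1 and Lhx1 were at most 0.127 and 0.454 CPM in the 6 samples and did not pass the filter on low counts. Of 14 primitive endoderm genes, 1 was called higher and 2 lower, and Gata6 and Sox17, which define the lineage, were at most 1.17 and 0.486 CPM. Sox7 (-4.86 (adjusted p = 0.00303)) and the laminin gene Lama1 (-2.56 (adjusted p = 0.00259)) fell, and the endocytic adaptor Dab2 rose (1.87 (adjusted p = 0.0143)), the last not without line 14 (adjusted p = 0.134). Gata4 changed by 1.14 (adjusted p = 0.0903). Of 9 trophoblast genes, 2 keratins were called higher. Krt18 stood at 15.2, 17.9 and 7.76 CPM at day 0 and 57.1, 133 and 48.2 CPM at day 2 (2.48 ± 0.32, adjusted p = 0.0035), with line 19 the highest at day 2, and Krt7 changed by 3.50 (adjusted p = 0.00494). Tfap2c, an AP-2 factor also used by naive cells, fell (-3.54 (adjusted p = 0.00389)).

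Fibroblast transcripts, a sign of feeder cells, were present at both days. Their summed level over 20 genes was 343, 199 and 254 CPM at day 0 and 180.4, 141 and 142 CPM at day 2, and in the controls it ranged from 253 to 550.1 CPM and from 219.9 to 285 CPM. Of 18 tested, 8 were called lower and 1, Thy1 (2.57 (adjusted p = 0.00858)), higher. Mgp fell by the most (-2.99 (adjusted p = 0.00474)) and Lox followed (-2.90 (adjusted p = 0.0182)). The defining genes Col1a1 and Col1a2 stood at 41.6, 26.3 and 53.7 CPM and 40.5, 19.3 and 47.05 CPM at day 0 and at 21.4, 12.5 and 16.5 CPM and 27.04, 13.2 and 24.3 CPM at day 2. Col1a1 was called lower (-1.24 (adjusted p = 0.0326)) but not without line 14 or line 319 (adjusted p = 0.151 and 0.139). Lum and Postn did not pass the filter. The part of fibroblast RNA in the falls of secreted and matrix genes given below, such as Grem1 and Thbs1, was not tested.

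BMP signalling genes were lower at day 2. Of 19 tested, 8 were called lower and 0 higher, with a median of -1.43, and without line 19 11 were called lower and 1 higher. The Id genes are direct BMP targets whose products block differentiation factors. Id1 stood at 11.1, 11.9 and 14.4 CPM at day 0 and 1.29, 3.35 and 0.743 CPM at day 2 (-3.03 ± 0.52, adjusted p = 0.00933), with line 19 the highest at day 2, and Id4 went from 8.71, 6.90 and 5.86 CPM to 0.874, 0.341 and 1.24 CPM (-3.18 ± 0.50, adjusted p = 0.00684). Id2 was called (-1.43 (adjusted p = 0.0182)), though not without line 14 (adjusted p = 0.111). The ligand gene Bmp4 stood at 25.04, 29.4 and 42.9 CPM at day 0 and 3.26, 4.23 and 8.13 CPM at day 2 (-2.71 ± 0.31, adjusted p = 0.00267), with no overlap between days. The inhibitory Smads fell too, Smad7 from 111, 112 and 124 CPM to 14.1, 6.90 and 40.96 CPM (-2.85 ± 0.48, adjusted p = 0.00867) and Smad6 by -2.56 (adjusted p = 0.0118). The secreted antagonist Grem1 stood at 23.1, 11.2 and 36.9 CPM at day 0 and 1.75, 0.751 and 5.61 CPM at day 2 (-3.39 ± 0.38, adjusted p = 0.00259). The receptors Bmpr1a and Bmpr2 and the effectors Smad1 and Smad5 were not called.

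Nodal pathway genes showed a split between lines. Of 17 tested, 5 were called lower and 0 higher, and the median was -0.45. Without line 19, 3 were called lower and 2 higher, with a median of -0.21. Lefty2, a Nodal target and antagonist, stood at 276, 188 and 88.6 CPM at day 0 and 2.77, 1.71 and 35.4 CPM at day 2 (-5.20 ± 1.21, adjusted p = 0.0279). Lines 14 and 19 had lost almost all of it while line 319 kept much more, and the gene was not called without line 19 (adjusted p = 0.551). Tdgf1, the Nodal co-receptor Cripto, went from 533, 566 and 459 CPM to 74.5, 42.1 and 309 CPM (-2.42 ± 0.60, adjusted p = 0.0347) and was likewise not called without line 19 (adjusted p = 0.192). Nodal itself stood at 56.4, 53.4 and 125 CPM at day 0 and 20.4, 15.6 and 177 CPM at day 2 (-0.93 ± 0.46, adjusted p = 0.235), lower at day 2 in lines 14 and 19 and higher in line 319. Lefty1 changed by -1.82 (adjusted p = 0.0691). Pcsk6, a protease that matures Nodal, fell (-1.80 (adjusted p = 0.00829)), and Gdf3 fell (-0.99 (adjusted p = 0.0466)) but not without line 14 or line 319 (adjusted p = 0.395 and 0.146).

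FGF signalling through ERK pushes cells out of the naive state. Of 19 ligands and feedback genes, 2 were called higher and 2 lower, where 8.36% and 4.4% of all genes were. Besides Fgf5 the phosphatase Dusp4 rose (1.41 (adjusted p = 0.0202)), though not without line 14 or line 319 (adjusted p = 0.133 and 0.0835). Spry4, an ERK feedback inhibitor, stood at 129, 143 and 131 CPM at day 0 and 109.5, 81.8 and 52.8 CPM at day 2 (-0.78 (adjusted p = 0.15)). The ERK target Egr1 stood at 173, 139 and 23.8 CPM at day 0 and 20.4, 14.7 and 14.4 CPM at day 2 (-2.39 ± 0.53, adjusted p = 0.0223) and was not called without line 19 (adjusted p = 0.165), and line 319 was already low at day 0.

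Wnt pathway genes moved in both directions. Of 22 tested, 5 were called higher and 4 lower, where 8.36% and 4.4% of all genes were, and the median was 0.90. Without line 19, 9 and 4 were called with a median of 1.34. Notum, a secreted Wnt deacylase, went from 40.8, 40.6 and 64.6 CPM to 2.64, 1.84 and 5.03 CPM (-4.01 ± 0.34, adjusted p = 0.00163). The receptor Fzd5 fell (-2.29 (adjusted p = 0.00543)) while the receptor Fzd2 rose, from 7.22, 8.87 and 3.85 CPM to 49.1, 72.1 and 17.9 CPM (2.67 ± 0.32, adjusted p = 0.00284). Nkd1, an inhibitor of the pathway, rose (2.79 (adjusted p = 0.00552)). The ligand gene Wnt8a stood at 1.72, 1.48 and 1.07 CPM at day 0 and 6.26, 7.65 and 29.2 CPM at day 2 (2.97 ± 0.60, adjusted p = 0.0165), far higher at day 2 in line 319 than in the others, and Wnt7b fell (-2.40 (adjusted p = 0.0124)). Axin2, the most general Wnt target, changed by 0.73 (adjusted p = 0.308) and was called without line 19 (log2 change 1.29, adjusted p = 0.0118). Sp5, a target that answers to Wnt in stem cells, stood at 1.36, 3.05 and 1.26 CPM at day 0 and 0.0364, 0.0683 and 0.412 CPM at day 2 (-3.59 ± 0.81, adjusted p = 0.0245). Its value was low throughout, and without line 19 the adjusted p lay just below the threshold (0.05 after rounding).

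The bases before the start of Sp5 are shown as those of a Wnt target that fell while Lef1 and Fzd2 rose. RefSeq places them at chr2:70474673-70474922 on the plus strand of GRCm38.p6, and the capitals mark the TCF/LEF core motif CTTTGAT, which begins 104 bases before the start.
Sp5: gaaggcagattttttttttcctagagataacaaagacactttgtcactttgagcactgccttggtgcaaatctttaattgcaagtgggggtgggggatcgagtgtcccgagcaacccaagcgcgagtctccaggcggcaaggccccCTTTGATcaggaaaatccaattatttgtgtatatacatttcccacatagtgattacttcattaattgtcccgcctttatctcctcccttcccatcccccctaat
Of the genes tested with a RefSeq promoter, 3.04% held this motif on either strand. Among the 13 Wnt pathway genes with such a promoter, Sp5 alone held it.

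In the Notch pathway, 4 of 16 genes were called higher and 1 lower, where 8.36% and 4.4% of all genes were. Without line 19 the counts were 6 and 2. Hes6 stood at 15.8, 15.8 and 10.4 CPM at day 0 and 45.8, 105 and 52.9 CPM at day 2 (2.21 ± 0.33, adjusted p = 0.00601), with line 19 the highest at day 2, and the ligand gene Dll3 rose (2.05 (adjusted p = 0.0194)). Rbpj, the DNA-binding partner of Notch, fell from 266, 293 and 291 CPM to 78.8, 31.1 and 105 CPM (-2.14 ± 0.40, adjusted p = 0.0134). Hes1, a Notch target that naive cells express, changed by -1.06 (adjusted p = 0.0513). Notch2 rose (1.20 (adjusted p = 0.0448)), though not without line 14 or line 319 (adjusted p = 0.455 and 0.111).

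Immediate early genes, which serum induces within minutes, were far lower at day 2. Of 23 serum response genes tested, 8 were called lower and 3 higher, with a median of -1.08. Fosb stood at 80.2, 93.5 and 6.07 CPM at day 0 and 0.892, 0.546 and 0.412 CPM at day 2 (-6.05 ± 0.67, adjusted p = 0.00259). Line 319 had begun at far less Fosb than lines 14 and 19, and all 3 lines ended under 1 CPM. Ier3 went from 17.6, 15.1 and 9.18 CPM to 3.06, 3.62 and 2.85 CPM (-2.09 ± 0.35, adjusted p = 0.00858), and thrombospondin 1 (Thbs1) changed by -2.32 (adjusted p = 0.0105). Ccn2, a target of YAP and SRF, fell (-1.31 (adjusted p = 0.02)), but not without line 14 or line 319 (adjusted p = 0.124 and 0.0561). The 3 genes called higher encode parts of the actin cytoskeleton, the calponin Cnn1 (2.26 (adjusted p = 0.00686)), the myosin light chain Myl9 (1.52 (adjusted p = 0.0411)) and the tropomyosin Tpm2 (1.73 (adjusted p = 0.0279)). The smooth muscle actin gene Acta2, counted in the fibroblast list, went the other way (-1.70 (adjusted p = 0.0197)), though it was not called without line 14 (adjusted p = 0.14). Cnn1 stood at 4.92, 5.23 and 1.69 CPM at day 0 and 25.2, 34.8 and 5.28 CPM at day 2, and Myl9 at 13.8, 13.96 and 2.98 CPM at day 0 and 48.8, 63.9 and 4.08 CPM at day 2. In both genes line 319 was the lowest on each day, and Myl9 was not called without line 19 (adjusted p = 0.0565) or line 14 (adjusted p = 0.227). Myc changed by -0.64 (adjusted p = 0.212).

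The bases before the start of Myl9 are shown as those of a serum response gene that was called higher. RefSeq places them at chr2:156775214-156775463 on the plus strand of GRCm38.p6. The capitals mark the CArG box, the SRF core motif, 161 bases before the start.
Myl9: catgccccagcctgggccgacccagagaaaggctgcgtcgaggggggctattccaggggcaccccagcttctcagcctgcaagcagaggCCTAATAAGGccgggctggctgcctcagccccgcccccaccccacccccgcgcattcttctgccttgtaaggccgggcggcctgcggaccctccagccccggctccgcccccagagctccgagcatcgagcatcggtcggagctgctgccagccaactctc
Of the genes tested with a RefSeq promoter, 1.55% held a CArG box. Of the 15 serum response genes with a RefSeq promoter, 5 held it: Cnn2, Egr2, Myl9, Srf and Vcl. Among these 5 Myl9 alone was called, and Egr2 is an immediate early gene (-1.16 (adjusted p = 0.134)).

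Some enzymes of sterol and fatty acid synthesis rose. Cells in serum take up cholesterol from lipoproteins, and SREBP2 switches on the synthesis enzymes when sterols are scarce. Of 20 cholesterol synthesis genes, 5 were called higher and 0 lower, with 18 of 20 above 0 and a median of 0.67. Without line 19, 11 were called higher and 1 lower with a median of 0.81, and in the fit of all 18 samples 16 were called higher and 1 lower. These fits also differ in how many genes they call. Of all genes, 8.36% were called higher in the main fit, 1968 of 16865 without line 19 and 3668 of 18273 with all 18 samples. The 5 synthesis genes called in the main fit were Msmo1 (1.50 (adjusted p = 0.0123)), Tm7sf2 (1.38 (adjusted p = 0.0289)), Fdps (1.23 (adjusted p = 0.0372)), Cyp51 (1.16 (adjusted p = 0.0288)) and Dhcr7 (1.12 (adjusted p = 0.0357)). Msmo1 stood at 72.9, 57.1 and 61.04 CPM at day 0 and 239.6, 155 and 154 CPM at day 2, with no overlap between days. None of the 5 was called without line 14 (adjusted p = 0.173, 0.213, 0.217, 0.371 and 0.446), and Cyp51 and Dhcr7 were also not called without line 319 (adjusted p = 0.0715 and 0.0903). Hmgcs1, the synthase at the entry of the pathway, stood at 374, 347 and 267 CPM at day 0 and 769, 352 and 543 CPM at day 2 (0.70 ± 0.33, adjusted p = 0.206). It climbed in lines 14 and 319 and stayed level in line 19, and without line 19 it was called (log2 change 1.05, adjusted p = 0.00688).

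The desaturase genes Fads2 (1.71 (adjusted p = 0.00932)) and Fads1 (1.10 (adjusted p = 0.0351)) rose, though not without line 14 (adjusted p = 0.117 and 0.43), and Fads1 also not without line 319 (adjusted p = 0.1). The 2 cholesterol exporters of the list went opposite ways. Abca1 stood at 43.7, 38.9 and 137 CPM at day 0 and 3.68, 0.683 and 10.5 CPM at day 2 (-4.19 ± 0.48, adjusted p = 0.00267) and Abcg1 at 14.9, 19.7 and 9.26 CPM at day 0 and 82.6, 59.3 and 33 CPM at day 2 (1.97 ± 0.31, adjusted p = 0.00698), the latter not called without line 14 (adjusted p = 0.0574). The bases before the start of Hmgcs1 are shown because they hold the sterol element motif TCACNCCAC, in capitals, 137 bases before the start (chr13:119690101-119690350, plus strand, RefSeq, GRCm38.p6).
Hmgcs1: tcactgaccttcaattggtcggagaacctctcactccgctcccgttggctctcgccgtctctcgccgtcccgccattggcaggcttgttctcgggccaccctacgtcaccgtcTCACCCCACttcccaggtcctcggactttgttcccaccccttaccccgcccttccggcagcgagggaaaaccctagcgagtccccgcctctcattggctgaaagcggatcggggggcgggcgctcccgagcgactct
Of the genes tested with a RefSeq promoter, 1.45% held this motif on either strand. Among the 15 cholesterol synthesis genes with such a promoter, Hmgcs1 alone held it. Of 14 genes of sterol sensing and fatty acid synthesis, 0 held it.

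Glucose handling changed in its transporters. Slc2a3, the high-affinity transporter GLUT3, stood at 1439, 1485 and 1286 CPM at day 0 and 465, 275 and 282 CPM at day 2 (-2.08 ± 0.32, adjusted p = 0.00601), with all lines high at day 0 and low at day 2. Slc2a1, the general transporter GLUT1, went from 679, 853 and 491 CPM to 2098, 2497 and 743 CPM (1.26 ± 0.33, adjusted p = 0.0427), less in line 319 than in the others, and was not called without line 14 (adjusted p = 0.421). Of 21 glycolysis genes 2 were called higher and 3 lower, where 8.36% and 4.4% of all genes were. Hk2 (-1.55 (adjusted p = 0.0139)) and Pfkp (-1.66 (adjusted p = 0.014)) fell and Pfkm rose (1.28 (adjusted p = 0.0203)), and none of these was called without line 14 (adjusted p = 0.106, 0.103 and 0.297). Ldha, the lactate dehydrogenase, changed by 0.32 (adjusted p = 0.549).

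Some epithelial genes were higher and some mesenchymal genes lower at day 2. Of 17 epithelial and mesenchymal genes, 4 were called higher and 2 lower, and without line 19 8 and 3. The tight junction genes Cldn6 and Cldn7 stood at 24.5, 29.4 and 9.18 CPM at day 0 and 108, 162 and 94.4 CPM at day 2, and at 10.5, 9.39 and 2.26 CPM at day 0 and 44.1, 70.3 and 17.6 CPM at day 2 (2.65 ± 0.34, adjusted p = 0.00349 and 2.65 ± 0.33, adjusted p = 0.00318). Krt18 and Epcam, given above, were the other genes called higher. The mesenchymal genes Zeb1 (-2.32 (adjusted p = 0.00914)) and Vim (-1.31 (adjusted p = 0.0385)) fell, Vim not without line 14 or line 319 (adjusted p = 0.267 and 0.15). Cdh1 stood at 569, 542 and 236 CPM at day 0 and 1084, 728 and 639.5 CPM at day 2 (0.94 ± 0.32, adjusted p = 0.0932) and was called without line 19 (log2 change 1.20, adjusted p = 0.00587). Cdh2, which replaces it in neural tissue, changed by 0.91 (adjusted p = 0.13).

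For other groups the calls stand beside the 12.8% of all genes that were called. Of 24 cell cycle genes 2 were called, the cyclins Ccnd3, given above, and Ccnd2 (-1.30 (adjusted p = 0.0308)), both lower. Of 30 nucleoporins 0 were called by edgeR, at a median of -0.31 and with 27 changes below 0. An unadjusted p below 0.05 was seen in 2, Nup98 and Nup210l, and DESeq2 called both, Nup98 lower and Nup210l higher. With the length trend removed 2 nucleoporins were called lower. In the fit of all 18 samples 1 was called higher and 7 lower, where 3668 and 2799 of 18273 genes were. Nup210l, the paralogue of Nup210, stood at 1.23, 1.28 and 2.47 CPM at day 0 and 3.73, 4.85 and 4.08 CPM at day 2 (1.41 ± 0.43, adjusted p = 0.0656). Of 10 Lin28, Hmga and Igf2bp genes 0 were called by edgeR, 2 had an unadjusted p below 0.05, Lin28b and Hmga2, and DESeq2 called Hmga2 lower. Without line 19 edgeR called Lin28b higher and Hmga2 lower. Of 20 p53 targets 1 was called higher, Pmaip1 (1.09 (adjusted p = 0.0447)), and 1 lower, Tigar (-1.23 (adjusted p = 0.0217)), and the p21 gene Cdkn1a changed by 0.72 (adjusted p = 0.196). Of 19 integrated stress response genes, Vldlr (2.58 (adjusted p = 0.00504)) and Ddit4 (1.41 (adjusted p = 0.0187)) were called higher and 0 lower, and with the length trend removed 7 were called higher. Without line 19, 1 cell cycle gene was called higher and 4 lower. Pmaip1, Tigar, Ddit4 and Ccnd2 were not called without line 14 (adjusted p = 0.258, 0.259, 0.105 and 0.107), nor Pmaip1 and Ddit4 without line 319 (adjusted p = 0.197 and 0.0749).

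Retinoic acid had not been added. Of 14 target genes, 2 were called higher and 1 lower, where 8.36% and 4.4% of all genes were. The median of these targets was -0.35, and 9 of the 14 changes were negative. Crabp2, a carrier of retinoic acid, stood at 1.81, 1.74 and 4.16 CPM at day 0 and 30.02, 55.6 and 22.9 CPM at day 2 (3.83 ± 0.53, adjusted p = 0.00438), and Stra6, the retinol uptake receptor, changed by 4.33 (adjusted p = 0.0134). Meis1 fell (-1.83 (adjusted p = 0.0371)), not without line 19 (adjusted p = 0.0707) or line 14 (adjusted p = 0.23). Of 39 Hox genes 11 were tested and 2 were called lower, Hoxa10 (-4.32 (adjusted p = 0.0106)) and Hoxa11 (-4.21 (adjusted p = 0.0296), without line 14 adjusted p = 0.107), both under 1 CPM at day 0. Of 15 interferon-stimulated genes 2 were called higher and 2 lower, and without line 19 3 and 4. Their median was -0.36, and 8 of the 15 changes were negative. Bst2, the membrane tether also called tetherin, stood at 24.1, 22.4 and 11.4 CPM at day 0 and 169, 248 and 62.8 CPM at day 2 (2.92 ± 0.33, adjusted p = 0.00259), and line 319 was the lowest on both days.

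**Figure D3:**
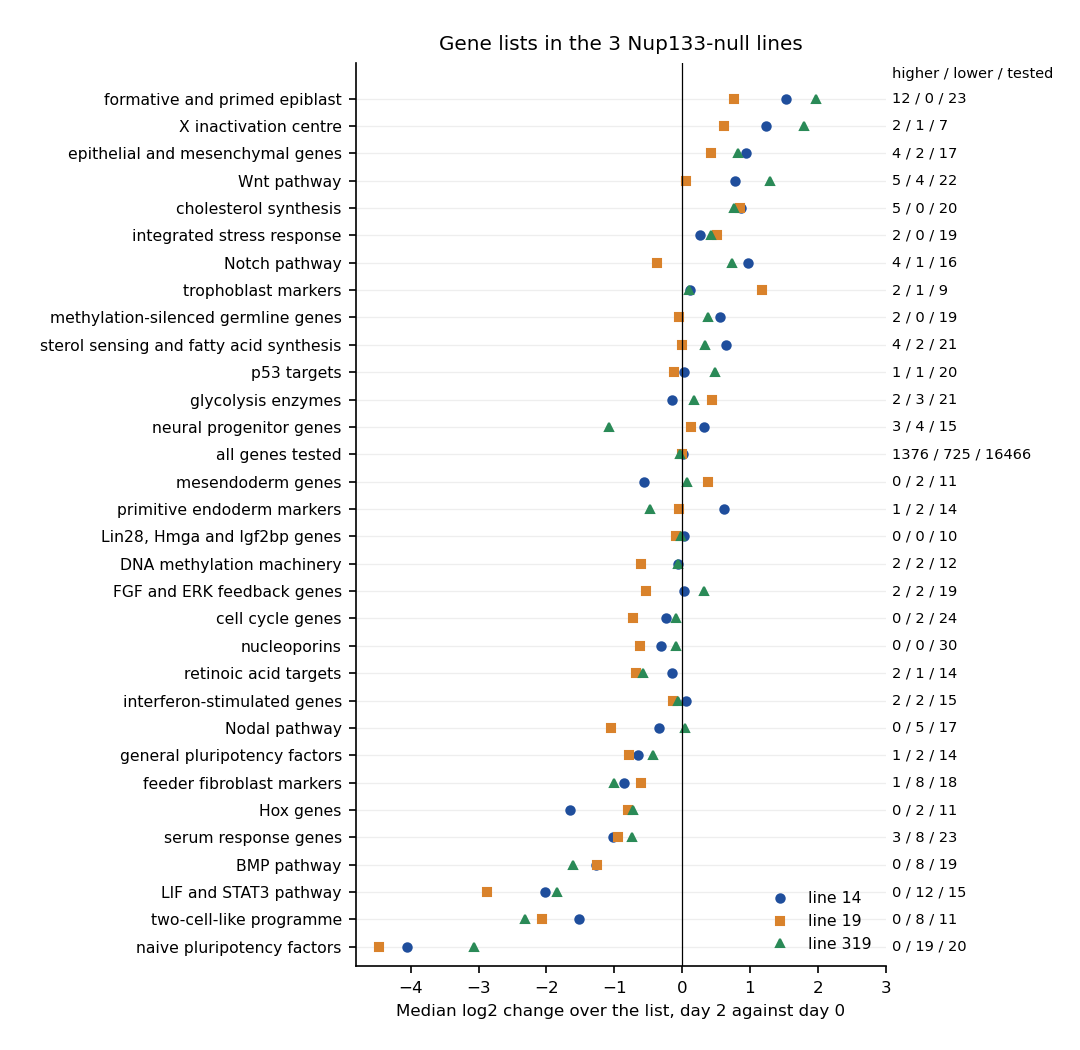
Median log2 change from day 0 to day 2 over each gene list, separately for lines 14 (circles), 19 (squares) and 319 (triangles), with the number of its genes called higher, called lower and tested at the right. The naive, two-cell-like, LIF and BMP lists lie at the bottom with medians below -1 in all 3 lines, the formative list lies at the top, and the neural list is above 0 in lines 14 and 19 and below 0 in line 319.

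Outside the lists, Btbd17 had the largest rise among genes that reached 10 CPM. It went from 0.324, 0.588 and 0.136 CPM to 20.1, 69.2 and 5.98 CPM (6.18 ± 0.45, adjusted p = 0.00163), most in line 19. Snph, the syntaphilin that anchors axonal mitochondria, stood at 0.130, 0.196 and 0.136 CPM at day 0 and 15.7, 13.7 and 6.06 CPM at day 2 (6.12 ± 0.49, adjusted p = 0.00163). Enpp2, the enzyme autotaxin that makes lysophosphatidic acid, reached much higher levels, from 9.36, 9.91 and 2.96 CPM to 294, 143 and 214 CPM (5.00 ± 0.51, adjusted p = 0.00231). The chemokine gene Cxcl12 stood at 2.27, 2.81 and 1.15 CPM at day 0 and 59.6, 38.6 and 24.96 CPM at day 2 (4.31 ± 0.36, adjusted p = 0.00163), and Spon1, a secreted matrix protein of the floor plate, at 2.04, 2.57 and 0.234 CPM at day 0 and 51.5, 39.5 and 3.96 CPM at day 2 (4.24 ± 0.36, adjusted p = 0.00163), with line 319 far below the others at day 2. Fam131b, Tmem54, Fam57b, Pdlim3 and Gprc5c completed the 10, with log2 changes of 4.41, 4.19, 4.18, 4.13 and 4.08. Fam57b lies over the abundant Aldoa, so its level is uncertain.

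Among abundant genes, Pim2, a serine/threonine kinase, stood at 70.5, 91.4 and 31.99 CPM at day 0 and 698, 1282 and 764 CPM at day 2 (3.90 ± 0.37, adjusted p = 0.00231), with the highest day 0 level below the lowest of day 2. Snurf, an imprinted gene of the Snrpn locus, rose from 36.96, 47.3 and 59.8 CPM to 124, 136 and 149.6 CPM (1.53 ± 0.28, adjusted p = 0.0113), though not without line 14 (adjusted p = 0.156), and it shares exons with Snrpn.

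The largest fall outside the lists among genes that reached 10 CPM was that of Spink1. The gene, which encodes a secreted trypsin inhibitor, stood at 7.42, 9.08 and 28.7 CPM at day 0 and 0.0546, 0.410 and 0.165 CPM at day 2 (-6.29 ± 0.65, adjusted p = 0.00231), highest at day 0 in line 319. Calcoco2, a selective autophagy receptor, stood at 16.6, 15.01 and 149.8 CPM at day 0 and 0.583, 1.02 and 3.18 CPM at day 2 (-4.82 ± 0.43, adjusted p = 0.00208), and its day 0 level in line 319 was far above that of the others. Xaf1, Khdc3 and Serpinb6c had the same pattern of a high start in line 319, with log2 changes of -4.93, -4.97 and -4.64. Ngfr, a neurotrophin receptor, fell from 25.9, 20.8 and 63.2 CPM to 0.856, 0.410 and 4.66 CPM (-4.64 ± 0.44, adjusted p = 0.00231). Pga5, Mymx and Islr2 fell as well (-5.19, -4.67 and -4.51).

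The 3 lines did not take the step alike. Across the 16466 genes, Pearson's correlation of the log2 changes was 0.69 between lines 14 and 19, 0.72 between lines 14 and 319 and 0.48 between lines 19 and 319. This is a description, since genes are not independent and the 3 pairs share lines. Line 19 differed by transcript length. With genes cut into 10 bins by length, its median change ran from 0.65 in the shortest bin to -0.79 in the longest. The other lines ran the opposite way and less, from -0.25 to 0.28 in line 14 and from -0.16 to 0.21 in line 319. In the longest bin, 173 genes were called higher with all lines and 361 without line 19, and in the shortest bin 48 were called higher either way. The long transcripts Tet1 (-1.90, -4.46 and -0.78 in lines 14, 19 and 319) and Nup98 (-0.71, -2.90 and -0.24) were lowest in line 19. In both, line 19 lay further below the other lines than in the medians of the longest bin. The part of transcript length in these 2 genes was not tested.

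**Figure D4:**
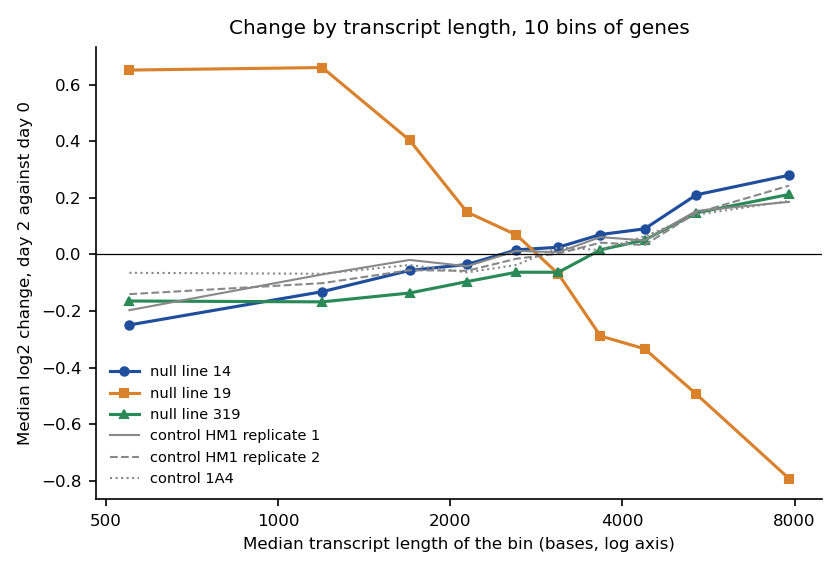
Median log2 change from day 0 to day 2 in 10 bins of genes by transcript length, against the median length of each bin on a log axis. Line 19 falls from 0.65 to -0.79 with length, while lines 14 and 319 and the 3 control series (grey) climb slightly.

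Line 319, the XX line, stood apart in a few genes. Xist, the RNA that coats the inactive X chromosome in female cells, stood at 12.02, 8.47 and 27.5 CPM at day 0 and 5.21, 2.94 and 968 CPM at day 2 (0.22 ± 1.33, adjusted p = 0.934). It rose only in line 319 by these values, to a level far above every other sample, and lay lower at day 2 in the male lines 14 and 19, where the fit without line 319 called it lower (log2 change -1.35, adjusted p = 0.0321). Its antisense partner Tsix fell (-1.83 (adjusted p = 0.0288)), not without line 14 (adjusted p = 0.206), and overlaps it. The median change over 606 X-linked genes was -0.11 in line 319 and -0.03 over the autosomes of that line. In lines 14 and 19 the X medians were 0.08 and -0.13. The extra chromosomes 8 and 12 of line 319 had medians of -0.10 and 0.10, and its other autosomes ranged from -0.13 to 0.09, so that chromosome 12 was the highest by a small margin. Ftx, a noncoding RNA gene near Xist, rose (1.47 (adjusted p = 0.0347)), though not without line 14 or line 319 (adjusted p = 0.25 and 0.0584).

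Of all genes tested, 43 were up more than 2-fold in lines 14 and 19 and down more than 2-fold in line 319, and 20 showed the reverse. Besides Sox1 and Xist they included Lpl, the lipoprotein lipase gene, which stood at 4.53, 2.83 and 30.7 CPM at day 0 and 26.2, 18.1 and 11.3 CPM at day 2. Stmn3, a neuronal stathmin, was at 2.88, 2.44 and 19.11 CPM at day 0 and 6.39, 16.7 and 2.72 CPM at day 2. The guanylate-binding protein gene Gbp2 went the other way, from 15.4, 19.3 and 1.05 CPM to 2.35, 2.12 and 13.8 CPM. These genes were chosen after their values were seen. Lpl, like Sox1, lies on chromosome 8. Background, sex, Nup133 allele, the extra chromosomes 8 and 12 and the Sox1gfp reporter all differ between line 319 and the pair of lines 14 and 19. These differences cannot be told apart.

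The same step was then set against the controls, which asks where the mutant lines changed differently. In a test of the difference itself over 12 samples, 0 of 17551 genes were called (0%, edgeR quasi-likelihood interaction of day and genotype), and 887 had an unadjusted p below 0.05 (5.05%). DESeq2 called 38 on the same samples, 35 of them with the more positive step in the mutant lines. The common coefficient of variation between samples was 0.336 in the mutant step, 0.117 in the control step and 0.253 in the test of the difference. The control step alone called 10123 of 16679 genes (60.7%), against 12.8% in the mutant lines. With that spread, 0 calls do not show that the steps were alike, and the 2 shares do not compare the breadth of the steps. For the lists, the medians of both genotypes are given side by side, with no test of their difference. The naive list had a median change of -4.05 in the mutant lines and -3.31 in the controls, the LIF list -2.21 and -1.81, the formative list 1.55 and 1.26 and the BMP list -1.43 and -0.85. The Wnt list had medians of 0.90 and 0.03. In each of these lists the mutant median lay further from 0. Others lay further from 0 in the controls, among them the mesendoderm list (-0.05 and -1.86) and the two-cell-like list (-2.29 and -2.55). So did the neural list (0.05 and 0.64), the cholesterol synthesis list (0.67 and 0.97) and the integrated stress response list (0.56 and 0.94).

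The gene with the lowest p was Apln (X chromosome, 48025146 to 48034853, minus strand), which encodes the peptide ligand apelin. In the mutant lines it stood at 1.36, 1.50 and 1.28 CPM at day 0 and 9.18, 9.97 and 12.1 CPM at day 2 (2.91 ± 0.37, adjusted p = 0.00325). The controls held 12.7, 12.5 and 8.81 CPM at day 0 and 14.6, 11.3 and 6.80 CPM at day 2 (-0.11 ± 0.14), so the mutant lines were below all controls at day 0 and among them at day 2. The difference between the steps was 3.01 ± 0.32, adjusted p = 0.158 by edgeR and passed the threshold with all 18 samples in the fit (adjusted p = 0.00413), without the filter on low counts (adjusted p = 0.0095) and in DESeq2 (adjusted p = 1.5e-13).

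Vrtn, a gene of the primitive streak and somites, rose in both genotypes but more in the mutant lines by these values, to 81.6, 80.2 and 74.6 CPM from 7.58, 8.36 and 4.03 CPM, against 63.5, 55.3 and 55.5 CPM from 24.6, 17.8 and 14.5 CPM (difference 1.98 ± 0.32, adjusted p = 0.601). Selenop, the plasma selenium carrier, had steps of 2.97 and 1.28 (difference 1.69 ± 0.28, adjusted p = 0.601). Dmrt1, a germline and sex determination factor, stood at 10.6, 12.8 and 11.2 CPM at day 0 and 33.5, 31.8 and 31.1 CPM at day 2, while the controls held 13, 12.6 and 9.95 CPM and 11, 14.5 and 8.91 CPM (difference 1.55 ± 0.26, adjusted p = 0.601). Rimbp2, a synaptic scaffold gene, had steps of 2.67 and 0.72 (0.601, the adjusted p of the difference). Mixl1, a mesendoderm homeobox gene, was under 1 CPM in every mutant sample, and in the controls it went from 4.53, 6.39 and 6.83 CPM to 1.31, 1.26 and 0.807 CPM (difference 3.48 ± 0.50, adjusted p = 0.601). DESeq2 called the difference of each of these 5 genes, with an adjusted p of 0.00013 for Vrtn, 0.000429 for Selenop, 0.000372 for Dmrt1, 0.000521 for Rimbp2 and 1.5e-05 for Mixl1.

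In the other direction, Kdr, the VEGF receptor, went down more in the mutant lines by these values (-4.18 against -1.62, difference -2.52 ± 0.56, adjusted p = 0.806). Esyt1, an endoplasmic reticulum tether, was at 96.9, 111 and 109 CPM at day 0 and 42.6, 28.3 and 28.2 CPM at day 2, and the controls held 64.7, 65.4 and 71.9 CPM and 49.1, 49.4 and 47.8 CPM (difference -1.24 ± 0.28, adjusted p = 0.806). Pga5, Rbmxl2 and Kank4 were also among those with the lowest p, with differences of -2.44, -1.13 and -1.96 at the same adjusted p of 0.806. Wnt8a and Krt18 were higher at day 2 in each mutant line, with control steps of -0.14 and 0.36 (adjusted p of both differences 0.806). DESeq2 called the differences of Kdr (adjusted p = 0.0238), Pga5 (0.0205), Wnt8a (0.00291) and Krt18 (0.0205), and not those of Esyt1, Rbmxl2 and Kank4.

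**Figure D5:**
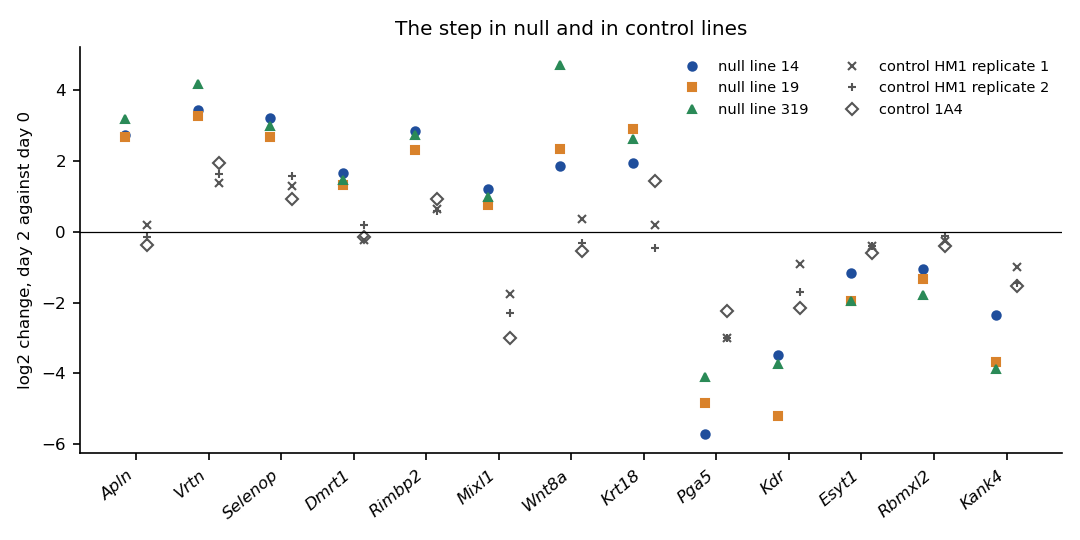
Log2 change from day 0 to day 2 of 13 genes in each mutant line (filled symbols) and each control series (grey symbols). For Apln, Dmrt1 and Mixl1 all 3 mutant lines lie above 0 and apart from the controls, which lie near 0 for Apln and Dmrt1 and below -1 for Mixl1.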

How the data were processed

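Polyadenylated RNA was sequenced with a stranded TruSeq kit, per the labels' protocols. The authors deposited raw counts for each Ensembl transcript in each technical file. The submitters' processing notes name bcl2fastq 2.17.1.14, STAR 2.4.0k, SAMtools, HTSeq and the build mm10. The annotation release and strand setting are not given in the sources used here. Transcripts of a gene held shared reads, so 1 transcript stood for each gene, that with the most counts over the 72 files, named from GENCODE M21 (108214 of 110379 identifiers matched). Unmatched identifiers held 1.49% to 2.46% of counts in the 6 samples. The 4 technical files of a sample differed by no more than counting error (chi-square per degree of freedom 1.01 to 1.02) and were added up.

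The test was that of edgeR 4.0.16 (in R 4.3.3, with TMM, filterByExpr, robust quasi-likelihood fit of line and day on the 6 samples). Fold changes are log2 with their SE, and p-values were adjusted over all genes tested. CPM were scaled over the 12 samples of both genotypes at days 0 and 2. The difference between genotypes was an interaction with series as a block. Same-line samples deviated together between days (correlations 0.213, 0.125 and 0.386 for lines 14, 19 and 319), and each pair is 1 cell line. No source says that cultures were separate beyond the lines. The script was tested on simulated counts.

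The gene lists and members were chosen with earlier results of these data known. The genes named are up to 6 of each list, called, at 1 CPM or more and with the largest change, then the 10 largest rises and falls at 10 CPM or more outside the lists, the 6 lowest p-values of the genotype difference in each direction, abundant called genes, and Pou5f1, Sox2, Sox1, Pax6, T, Cer1, Lhx1, Xist, Nup133 and Nup210l. Other names, among them Nanog, Esrrb, Zfp42, Stat3, Lifr, Otx2 and Hmgcs1, were added after their values were seen. Some genes that the rule names are not reported here. The STAT spacer and CArG box motifs were likewise added. Alternatives were another tool, scaling, filter, transcript and set of samples, no block, a length correction, and leaving out each line.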

Additional observations from a re-analysis of the deposited data

How the results depend on the processing

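The count of 2101 called genes lay between 1053 and 3174 when 1 line was left out, that of 1376 higher genes between 621 and 2073 and that of 725 lower genes between 432 and 1129. Such a fit keeps 1 residual degree of freedom. DESeq2 called 3171 genes (1282 lower), and no filter on low counts gave 3461 (2101 higher, 1360 lower). Both were taken over 27606 genes, so the shares were 11.5% and 12.5%, against 12.8% of 16466 genes in the main fit. The 9 mutant samples of 3 days gave 3253 of 17306 genes (18.8%, 2092 higher and 1161 lower). All 18 samples in 1 fit gave 6467 of 18273 (35.4%, 3668 higher and 2799 lower). Removing the length trend gave 1136 lower genes. With no replicate block, and so without pairing by line, 1779 genes were called and 1626 of the 2101 calls were kept. Removing the block ended the calls of 28 named genes, among them Pax6 (adjusted p = 0.175), Fgf4 (0.111), Dnmt3l (0.18), Tdgf1 (0.124), Lefty2 (0.0745) and Zic2 (0.161). None of the 2101 calls was called in the opposite direction under these alternatives. Size factors of the DESeq2 type (2127) and the longest transcript (2015) stayed near the reported count, although Msmo1, Fdps, Lef1 and Gdf3 were not called with the longest transcript. Over all named genes and alternatives, 2130 values kept their direction and side of the threshold, 131 lost the call, 101 gained one, and 1 turned. That was Xist, at -1.35 without line 319 (2.09 without line 19). The cause was not tested. The count of 0 for the genotype difference stayed at 0 with each of the 6 series left out, with the length trend removed and with no replicate block. It was 38 by DESeq2, 1 with no filter and 1 with all 18 samples. Depth limits line 19 at day 2 most, with 16.5 M counts.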
